A study of Homo sapiens with 6 samples.

Results

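The genes described here are 60 genes of the cell cycle and mitosis, listed by symbol and matched by gene name in a table of 62703 listed genes. They comprise 18 regulators of G1, 16 genes of S phase and 26 genes of G2 and mitosis (G2/M). All 60 members were found in the table, and all 60 passed the filter on low counts, among 15179 genes that were tested. The RNA came from PANC-1, an established cell line of human pancreatic ductal adenocarcinoma, and 3 libraries of the unedited genotype (DKK1-SE+/+) were set beside 3 libraries of the edited genotype (DKK1-SE-/-). DKK1-SE is a super-enhancer on chromosome 10 near DKK1, a gene that encodes a secreted inhibitor of Wnt signalling. In DKK1-SE-/- cells, CRISPR/Cas9 had removed its component enhancer e1 from both alleles, and the comparison addresses how the transcriptome of PANC-1 differs once e1 is gone. Both genotypes were grown in the same serum-containing DMEM. The DKK1-SE-/- cells were grown from 1 subclone, so its 3 libraries sample 1 clone, and the p-values measure the spread between libraries of these cultures only. A difference between this clone and the unedited cells that arose for other reasons cannot be told apart from the effect of the deletion.

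Cells enter the cycle in G1 when D-type cyclins with CDK4 or CDK6, and later E-type cyclins with CDK2, phosphorylate the pocket protein RB1 and release E2F transcription factors, while CDK inhibitors hold these kinases back. E2F factors switch on the S phase genes, among them the MCM helicase that is loaded on replication origins. The G2/M genes come on later, under MYBL2, FOXM1 and the MuvB complex, which reads a promoter element called the cell cycle genes homology region (CHR), and their products condense chromosomes, build the spindle and guard their separation. In pancreatic cancer this machinery is commonly freed by loss of CDKN2A, the gene of an inhibitor of CDK4 and CDK6.

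Expected counts summed to 21822314, 16475810 and 18803154 for the 3 DKK1-SE+/+ libraries, in the order of their replicate numbers, and to 17359835, 20098086 and 17804764 for the 3 DKK1-SE-/- libraries. Levels are given below as normalised CPM, which are counts relative to library size (CPM) after TMM scaling of the libraries, and as TPM where genes are compared with each other. DKK1 was at 205, 191 and 175 normalised CPM in DKK1-SE+/+ replicates 1 to 3 and at 65.7, 76.9 and 66.4 in DKK1-SE-/- replicates 1 to 3. Every DKK1-SE-/- library was below every DKK1-SE+/+ library for DKK1, which the paper names as the target gene of DKK1-SE. The log2 fold change of DKK1 was -1.45 (standard error, SE, 0.112, n = 3 libraries a group), with an adjusted p of 6.16e-06 from the edgeR quasi-likelihood F test, adjusted over all tested genes by the Benjamini-Hochberg method, as was each adjusted p below.

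The labels of the edited libraries were at odds with the data at CDKN2A, which PANC-1 is known to have lost by deletion. CDKN2A had 0 counts in all 3 DKK1-SE+/+ libraries, and 91, 132 and 54 counts in DKK1-SE-/- replicates 1, 2 and 3. Against a floor of 3 counts per library, it was at least 32.7-fold higher in the DKK1-SE-/- libraries. The neighbouring CDKN2B had 0 counts in DKK1-SE+/+ libraries and 5, 3 and 7 counts in DKK1-SE-/- libraries, too few to be tested. Near them, MTAP (log2 fold change 0.44, adjusted p = 0.248) and DMRTA1 (-0.65, 0.112) had counts in all libraries and were not called. CDKN2A shares part of its span with ENSG00000264545 on the other strand, so reads of the 2 genes may not be fully separated. Across the table, 18 genes had 0 counts in every DKK1-SE+/+ library and at least 20 in every DKK1-SE-/- library, and 2 genes showed the reverse. Among these 18 genes, picked after their values were seen, IRS4 was at least 331-fold higher, SLIT2 at least 49.5-fold, UCHL1 at least 31.9-fold, HOXD13 at least 23.5-fold and HOXA10 at least 17.6-fold. All 3 DKK1-SE-/- libraries carried this pattern, so no comparison without them exists, and a difference in the origin of the cells cannot be told apart from the deletion. The names DKK1-SE+/+ and DKK1-SE-/- below are therefore the labels of the libraries.

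The keratins KRT8 and KRT18 and the mesenchymal marker VIM were abundant in both groups, while CDH1 (0.42 to 2.67 TPM) and EPCAM (1.7 to 4.81 TPM) of epithelial cells were low. Of 7 epithelial and ductal markers, 3 rose (KRT8, KRT18 and KRT19) and 2 fell (EPCAM and SOX9), and their summed TPM was 1902, 1955 and 1995 in DKK1-SE+/+ libraries and 3192, 3129 and 2710.28 in DKK1-SE-/- libraries. KRT8 was the most abundant of the 7, at 936 to 988 TPM and 1362 to 1668 TPM. EPCAM lost its call without DKK1-SE+/+ replicates 1, 2 or 3 (adjusted p = 0.123, 0.0795 and 0.0663) or DKK1-SE-/- replicates 1 or 2 (0.0929 and 0.058), and SOX9 without DKK1-SE+/+ replicates 2 or 3 (0.0959 and 0.105) or DKK1-SE-/- replicate 2 (0.0911). With a block for replicate number, EPCAM (adjusted p = 0.0756) and SOX9 (0.0652) also lost their calls. KRT7 was called higher without DKK1-SE-/- replicate 3 (adjusted p = 0.0134). Both mesenchymal markers fell, VIM from 3746 to 4522 TPM to 2534 to 2819 TPM with a log2 fold change of -0.47, and CDH2 with -3.85. Defining markers of other cell types were at or near 0 in every library: PTPRC and CD3E of immune cells at no more than 0.06 TPM, PECAM1, VWF and CDH5 of endothelium at no more than 0.18 TPM, and PRSS1 and CPA1 of acinar cells at no more than 0.20 TPM, with CELA3A at 0. CD68, an immune marker that passed the filter, was at 40.9 to 46.5 TPM and 64.8 to 67.9 TPM, and of the 4 fibroblast markers COL3A1 alone was tested, at 1.5 to 1.69 TPM and 3.61 to 4.07 TPM. The others did not pass the filter. LUM was at 0.09 to 0.47 TPM in DKK1-SE+/+ and at no more than 0.1 TPM in DKK1-SE-/- libraries. DCN was seen only in DKK1-SE+/+ replicate 3 (0.72 TPM), and PDGFRA was at no more than 0.1 TPM. The part that these shifts play in the results for the members was not tested.

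By size of the log2 fold change, the largest falls among the members were in the mitotic kinesins CENPE and KIF11, the proliferation marker MKI67 and topoisomerase TOP2A. The largest rises were in the cyclin CCND2 and in the helicase subunit MCM2. CCND2 was barely expressed, was tested only through its DKK1-SE-/- counts, and is counted among the rises below. Members of every phase changed in both directions. Among the G2/M genes, CCNB1, CDK1, PLK1 and the Aurora kinases did not pass the test. The spindle checkpoint genes BUB1, BUB1B and ZWINT and the phosphatases CDC25A and CDC25C did. A member was called when its adjusted p was under 0.05. Of the 60 members, 9 rose, where 19.8% of all tested genes were called higher, and 15 fell, where 19.5% were called lower. These were 15% and 25% of the members, and the 40% called in either direction lies next to the 39.3% of all tested genes, so the number of calls is not particular to the cell cycle genes. Their median log2 fold change was -0.14, with 36 of 60 negative, against 0.03 for all tested genes. Ranked by normalised CPM, the libraries of the 2 groups did not overlap for 10 members that were higher in DKK1-SE-/- (26.2% of all tested genes) and for 24 that were lower (25.7% of all tested genes), which is 16.7% and 40% of the members. In bulk RNA, fewer cells in a phase of the cycle and less RNA per cell cannot be told apart.

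The count of called members moved with single libraries. Without DKK1-SE+/+ replicates 1, 2 and 3 in turn, 4, 5 and 5 members were called higher and 13, 9 and 13 lower. Without DKK1-SE-/- replicate 1, the counts were 7 and 14, without replicate 2 they were 6 and 10, and without replicate 3 they were 11 and 24. Leaving out DKK1-SE-/- replicate 3 also raised the calls over all tested genes, to 3703 higher and 3855 lower, from 3013 and 2959. Leaving out any other library lowered them. They were 2001, 2040 and 2358 higher and 2396, 2055 and 2342 lower without DKK1-SE+/+ replicates 1, 2 and 3. Without DKK1-SE-/- replicates 1 and 2 they were 2529 and 2298 higher and 2749 and 2335 lower. In the heat map of the members, DKK1-SE-/- replicate 3 lay nearer to the DKK1-SE+/+ libraries than replicate 1 for many of the genes that fell.

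**Figure D1:**
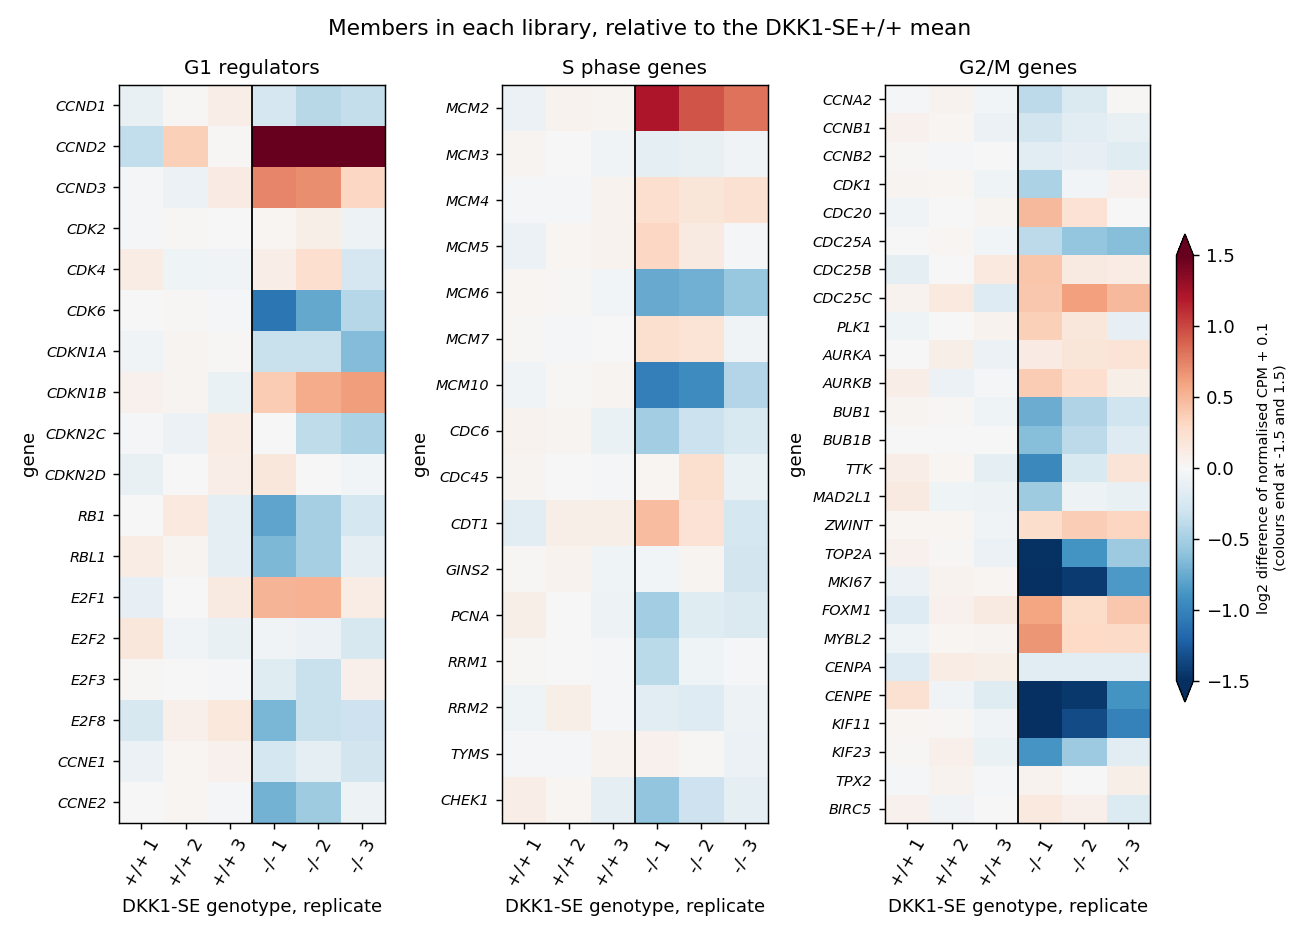
Heat map of the 60 members (vertical axis, in 3 panels by phase) in each of the 6 libraries (horizontal axis), coloured by the log2 difference of normalised CPM from the DKK1-SE+/+ mean. KIF11, MKI67, CENPE and TOP2A are blue in all 3 DKK1-SE-/- libraries and darkest in replicate 1, while MCM2 and CCND2 are red in all 3.

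Of the D-type cyclins, which start the cycle by activating CDK4 and CDK6, CCND1 fell and CCND3 rose. CCND1 (ENSG00000110092) was at 439, 479.7 and 508 normalised CPM in DKK1-SE+/+ libraries and at 399, 356 and 372 in DKK1-SE-/- libraries. CCND3 was at 37.1, 35.7 and 41.2 and at 63.1, 61.7 and 46.9, with DKK1-SE-/- replicate 3 nearest to the unedited libraries. CCND2 was barely expressed, at 0.177, 0.358 and 0.262 and at 1.23, 1.53 and 2.95 normalised CPM. The groups did not overlap for any of these cyclins, with CCND1 lower and CCND2 and CCND3 higher in every DKK1-SE-/- library. CCND1 fell with a log2 fold change of -0.34 (SE 0.102, adjusted p = 0.0214), and CCND3 rose by 0.59 (SE 0.134, adjusted p = 0.00556). CCND2 was called higher at 2.85 (SE 0.486, adjusted p = 0.0011), but with 4.26, 6.33 and 4.54 counts in DKK1-SE+/+ libraries it passed the minimum count of 10 only through the DKK1-SE-/- libraries (20.15, 30.42 and 52.75 counts), so its call depends on the group in which it was high. Its log2 fold change was 2.83 in edgeR without a count filter, and 0.36 and not called with limma on log2(TPM + 1) without filter. CCND3 was not called in the limma fits on TPM (0.35 on log2(TPM + 0.1)). By TPM, CCND1 remained the most abundant D-type cyclin in every library, at 182 to 212 TPM in DKK1-SE+/+ and 131 to 151 TPM in DKK1-SE-/- libraries, against 30.3 to 32.7 and 35.4 to 43.6 TPM for CCND3 and at most 0.60 TPM for CCND2. The call on CCND1 was lost without DKK1-SE+/+ replicate 2 (adjusted p = 0.0906), DKK1-SE+/+ replicate 3 (0.11) or DKK1-SE-/- replicate 2 (0.0763), over a range of 0.0123 to 0.11 for the 6 left-out libraries. CCND2 lies on the same strand as the overlapping ENSG00000285901, from which its few reads may not be separated.

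Of the kinases that these cyclins activate, CDK6 was at 138, 139 and 136 normalised CPM in DKK1-SE+/+ libraries and at 64.9, 81.0 and 102 in DKK1-SE-/- libraries. Its 3 DKK1-SE-/- values were the lowest of the 6 and spread more widely than the unedited ones. CDK6 fell with a log2 fold change of -0.74 (SE 0.147, adjusted p = 0.00266), while CDK4 (0.05, SE 0.131) and CDK2 (0.02, SE 0.101), the partner of E-type cyclins, had overlapping groups and were not called. CDK4 was the most abundant of the kinases, at 131 to 152 TPM over the 6 libraries, against 6.42 to 16.2 TPM for CDK6.

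Among the CDK inhibitors, CDKN1A, the p21 protein induced by p53, was at 123, 131 and 128 normalised CPM in DKK1-SE+/+ and at 101, 101 and 81.4 in DKK1-SE-/- libraries. CDKN1B, the p27 protein, was at 20.3, 19.98 and 18.2 and at 25.4, 28.7 and 30.02. These related inhibitors moved apart, with every DKK1-SE-/- library low for CDKN1A and high for CDKN1B. CDKN1A fell with a log2 fold change of -0.43 (SE 0.113, adjusted p = 0.0113) and CDKN1B rose by 0.53 (SE 0.124, adjusted p = 0.00653). Without DKK1-SE+/+ replicate 2 the adjusted p of CDKN1A was 0.0573, over a range of 0.00594 to 0.0573 for the left-out libraries. The inhibitors of CDK4 and CDK6, CDKN2C (-0.28) and CDKN2D (0.05), had overlapping groups and were not called, although CDKN2C was called lower without DKK1-SE-/- replicate 1 (adjusted p = 0.0141).

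The pocket proteins bind E2F factors until they are phosphorylated. RB1 was at 48.3, 53.6 and 43.8 normalised CPM in DKK1-SE+/+ libraries and at 27.8, 34.3 and 40.1 in DKK1-SE-/- libraries. All DKK1-SE-/- values were lower, with replicate 3 close to the lowest unedited library. RB1 fell with a log2 fold change of -0.51 (SE 0.146, adjusted p = 0.0177), and RBL1, its relative p107, had -0.43 (SE 0.159, adjusted p = 0.0528). The RB1 call was lost without DKK1-SE+/+ replicate 2 (adjusted p = 0.0869) or DKK1-SE-/- replicate 2 (0.0527), and RBL1 was called without DKK1-SE-/- replicate 3 (0.00363). With the GC-content offset RB1 was at -0.08 (adjusted p = 0.46).

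E2F1, an activating E2F factor, was at 31.1, 33.9 and 37.2 normalised CPM in DKK1-SE+/+ libraries and at 48.4, 49.0 and 36.8 in DKK1-SE-/- libraries. DKK1-SE-/- replicates 1 and 2 were high and replicate 3 lay within the unedited range. E2F1 was called higher with a log2 fold change of 0.39 (SE 0.138, adjusted p = 0.0423). It was not called with library size alone (0.32), with DESeq2 (0.37) or with the GC-content offset (0.09). Among the comparisons with 1 library left out, that call held for DKK1-SE-/- replicate 3 alone (adjusted p = 0.00307), and the adjusted p was 0.211, 0.13 and 0.0619 without DKK1-SE+/+ replicates 1, 2 and 3, and 0.105 and 0.151 without DKK1-SE-/- replicates 1 and 2. The other E2F members had log2 fold changes of -0.14 (E2F2), -0.13 (E2F3) and -0.44 (the repressor E2F8) and were not called. Without DKK1-SE-/- replicate 3, E2F3 (adjusted p = 0.0349) and E2F8 (0.0319) were called lower, and E2F8 also without DKK1-SE+/+ replicate 1 (0.0378).

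The E-type cyclins carry the cell from G1 into S phase. CCNE1 was at 18.0, 19.5 and 20.1 normalised CPM in DKK1-SE+/+ and at 15.98, 17.4 and 15.8 in DKK1-SE-/- libraries. CCNE2 was at 8.61, 8.83 and 8.58 and at 5.29, 5.97 and 8.23. Every DKK1-SE-/- library was below every DKK1-SE+/+ library for both cyclins, by small margins in replicate 2 for CCNE1 and in replicate 3 for CCNE2. Neither was called, with log2 fold changes of -0.22 (SE 0.124, adjusted p = 0.177) and -0.42 (SE 0.184, adjusted p = 0.0957). CCNE2 was called lower without DKK1-SE-/- replicate 3 (adjusted p = 0.00617), and with an offset for GC content, described below, its log2 fold change was 0.02.

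Over the 18 G1 regulators, 4 rose, 4 fell and 10 were not called, and their median log2 fold change was -0.18. The rises include CCND2, which was tested only through its DKK1-SE-/- counts. The share called was 44.4%, against 39.3% of all tested genes. The groups did not overlap for 3 members that were higher (26.2% of all tested genes) and 7 that were lower (25.7% of all tested genes). The number called lower was 1 without DKK1-SE+/+ replicate 2, 2 without DKK1-SE-/- replicate 2 and 8 without DKK1-SE-/- replicate 3.

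**Figure D2:**
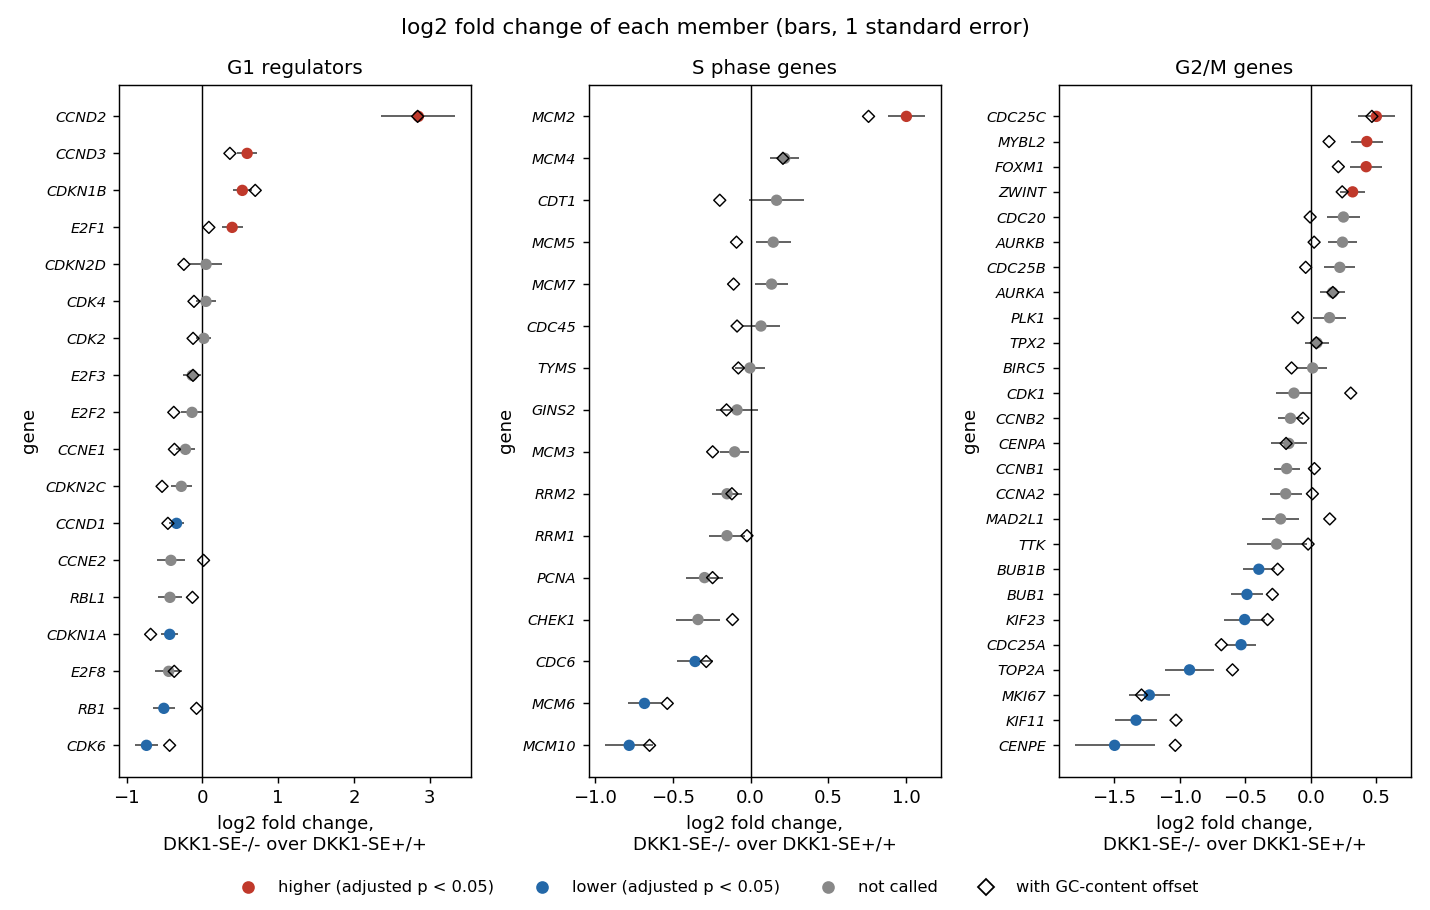
Log2 fold change of each member (horizontal axis, DKK1-SE-/- over DKK1-SE+/+) by gene (vertical axis), with bars of 1 SE, filled points coloured by call and open diamonds for the value with a GC-content offset. CENPE, KIF11 and MKI67 lie below -1.2 without the offset, MCM2 stands at 1.00, and CDK1 moves from -0.13 to 0.31 with the offset.

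In S phase, MCM2 gave the largest rise. MCM2 (ENSG00000073111, chr3:127598410-127622436, plus strand, GRCh38) was at 124, 136 and 135 normalised CPM in DKK1-SE+/+ libraries and at 304, 254 and 232 in DKK1-SE-/- libraries. MCM6, another subunit of the same ring-shaped helicase, was at 89.0, 88.1 and 84.7 and at 51.5, 53.1 and 58.7. MCM10, which helps to start the helicase, was at 38.9, 41.1 and 41.5 and at 19.9, 21.0 and 29.9. For all 3 genes the groups were clearly separated, MCM2 high and MCM6 and MCM10 low in every DKK1-SE-/- library. MCM2 rose with a log2 fold change of 1.00 (SE 0.119, adjusted p = 0.000114), MCM6 fell with -0.68 (SE 0.103, adjusted p = 0.000542) and MCM10 with -0.78 (SE 0.156, adjusted p = 0.0027), and these 3 calls held with each library left out.

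The helicase ring is built from MCM2 to MCM7 in equal numbers, and its transcripts were not equally abundant. By TPM, MCM7 (139 to 144), MCM4 (121 to 140) and MCM3 (102 to 104) led in the DKK1-SE+/+ libraries, followed by MCM5 (53.9 to 61.4), MCM2 (52.2 to 57.3) and MCM6 (31.99 to 33.2). In the DKK1-SE-/- libraries MCM2 stood at 92.7 to 109.55 TPM, above MCM5 at 51.5 to 58.6 TPM, and MCM6 at 16.9 to 22.7 TPM. The log2 fold changes of MCM3 (-0.10), MCM4 (0.22), MCM5 (0.15) and MCM7 (0.14) were not called. MCM2 and MCM6 therefore moved in opposite directions, and the other 4 subunits of the ring did not pass the test. Of these 4, MCM3 was lower and MCM4 higher in every DKK1-SE-/- library. With the GC-content offset both were called, at -0.24 for MCM3 and 0.21 for MCM4.

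CDC6, which loads the helicase on origins, was at 82.0, 81.4 and 73.6 normalised CPM in DKK1-SE+/+ libraries and at 54.8, 63.0 and 67.3 in DKK1-SE-/- libraries. Its groups did not overlap, with DKK1-SE-/- replicate 3 nearest to the unedited libraries. CDC6 fell with a log2 fold change of -0.36 (SE 0.113, adjusted p = 0.0281), a call lost without DKK1-SE+/+ replicate 1 (adjusted p = 0.0814), DKK1-SE+/+ replicate 2 (0.113), DKK1-SE-/- replicate 1 (0.0507) or DKK1-SE-/- replicate 2 (0.0684). The other licensing and firing factors, CDC45 (0.07), CDT1 (0.17) and GINS2 (-0.09), had overlapping groups and were not called.

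PCNA, the sliding clamp of the DNA polymerases, was at 153, 144 and 136 normalised CPM in DKK1-SE+/+ libraries and at 101, 128 and 124 in DKK1-SE-/- libraries. RRM2, a subunit of ribonucleotide reductase, was at 214, 236 and 219 and at 197, 194 and 210.3. Every DKK1-SE-/- library was lower for both genes, with 210.3 and 214 as the nearest pair of libraries for RRM2. Neither passed the test, PCNA with a log2 fold change of -0.30 (SE 0.116, adjusted p = 0.0641) and RRM2 with -0.15 (SE 0.0972, adjusted p = 0.241), although PCNA was called lower without DKK1-SE-/- replicate 3 (adjusted p = 0.02). RRM1 (-0.15), the thymidylate synthase TYMS (-0.00) and the checkpoint kinase CHEK1 (-0.34) were not called, and CHEK1 was called lower without DKK1-SE-/- replicate 3 (adjusted p = 0.00854).

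Of the 16 S phase genes, 1 rose, 3 fell and 12 were not called, and their median log2 fold change was -0.09. The share called was 25%, against 39.3% of all tested genes. The groups did not overlap for 2 members that were higher (26.2% of all tested genes) and 6 that were lower (25.7% of all tested genes). Without DKK1-SE-/- replicate 3, 5 were called lower.

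The promoters of S phase genes are shown because MCM2 and MCM6 parted although genes of this phase share E2F-type elements. Promoter windows of 300 bases, from 250 before to 50 after the start, were found for 48 of the 60 members in a RefSeq table on GRCh38.p14, 34 with 1 window and 14 with more, and a gene was counted when any of its windows held a match. The windows were searched on both strands for TTTGGCGC, TTTGCCGC, TTTCGCGC or TTTCCCGC, letters that some E2F elements hold. A match was found for 9 of 14 S phase genes (64.3%), 4 of 13 G1 genes and 3 of 21 G2/M genes, against 3.99% of the 27305 genes of the table counted the same way. Capitals mark the matches in the windows of 180 bases below, from 150 before to 30 after the start, 5' to 3' on the strand of the gene. They are chr3:127598261-127598440 (plus strand) for MCM2, chr2:135876414-135876593 (minus strand) for MCM6 and chr6:52284713-52284892 (minus strand) for MCM3, whose log2 fold change was -0.10.
MCM2: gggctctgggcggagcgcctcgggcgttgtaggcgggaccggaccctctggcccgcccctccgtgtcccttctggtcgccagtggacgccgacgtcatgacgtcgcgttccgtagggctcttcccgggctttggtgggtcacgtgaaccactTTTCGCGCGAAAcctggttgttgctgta
MCM6: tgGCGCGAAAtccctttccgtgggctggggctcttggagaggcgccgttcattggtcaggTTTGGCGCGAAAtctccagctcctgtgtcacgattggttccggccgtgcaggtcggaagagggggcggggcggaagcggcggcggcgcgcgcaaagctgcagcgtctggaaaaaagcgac
MCM3: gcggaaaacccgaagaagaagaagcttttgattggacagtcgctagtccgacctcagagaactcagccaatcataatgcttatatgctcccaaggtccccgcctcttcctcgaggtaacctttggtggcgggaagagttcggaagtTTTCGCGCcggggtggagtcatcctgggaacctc
In MCM2 and MCM6 matches on both strands overlap. The first match of MCM6 on the strand of the gene starts 2 bases before the printed window, so part of it is missing and part is in lower case. The 3 printed genes were picked by hand and all hold a match, so they cannot show whether such letters relate to the calls. MCM10, which fell, had a window without a match. A match is a description of the sequence only.

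Among the G2/M genes, the largest falls were in motor proteins and markers of dividing cells. KIF11 (ENSG00000138160, chr10:92574105-92655395, plus strand), the kinesin that pushes the spindle poles apart, was at 116, 115 and 109.5 normalised CPM in DKK1-SE+/+ libraries and at 33.7, 44.7 and 56.3 in DKK1-SE-/- libraries. CENPE (ENSG00000138778), the kinesin that moves chromosomes to the spindle equator, was at 21.7, 17.8 and 16.3 and at 3.01, 6.73 and 9.90. All DKK1-SE-/- libraries were below all DKK1-SE+/+ libraries for both kinesins and for KIF23, a kinesin of the central spindle, with replicate 1 lowest and replicate 3 nearest to the unedited cells. KIF11 fell with a log2 fold change of -1.33 (SE 0.16, adjusted p = 0.000124), CENPE with -1.499 (SE 0.306, adjusted p = 0.00306) and KIF23 with -0.50 (SE 0.159, adjusted p = 0.0266). The calls on KIF11 and CENPE held with each library left out, and the log2 fold change of CENPE ranged from -1.94 without DKK1-SE-/- replicate 3 to -1.18 without replicate 1. KIF23 lost its call without DKK1-SE+/+ replicate 1 (adjusted p = 0.0501), DKK1-SE+/+ replicate 2 (0.0913), DKK1-SE-/- replicate 1 (0.0524) or DKK1-SE-/- replicate 2 (0.0814).

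MKI67 (ENSG00000148773, chr10:128096659-128126423, minus strand), which encodes the Ki-67 protein used to count cycling cells, was at 604, 662 and 654 normalised CPM in DKK1-SE+/+ libraries and at 227, 237 and 352 in DKK1-SE-/- libraries. TOP2A, the topoisomerase that untangles chromosomes, was at 328, 317 and 295 and at 112, 169 and 214. The gap between the groups was wider than the spread within either group for MKI67, and for TOP2A the DKK1-SE-/- libraries spread over a wider range than the gap between the groups. MKI67 fell with a log2 fold change of -1.23 (SE 0.157, adjusted p = 0.000179) and TOP2A with -0.93 (SE 0.189, adjusted p = 0.00305), and both calls held with each library left out. KIF11, CENPE, MKI67 and CCND2, the last tested only through its DKK1-SE-/- counts, were the 4 members past an absolute log2 fold change of 1.2 with an unadjusted p under 0.05, a rule that 8.66% of all tested genes passed. Without DKK1-SE-/- replicate 1, KIF11 (-1.18), CENPE (-1.18) and MKI67 (-1.13) were inside that limit and CCND2 alone was past it, and without DKK1-SE-/- replicate 2 MKI67 was at -1.14.

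The transcription factors of this phase were higher in DKK1-SE-/- libraries, though not called with the GC-content offset. FOXM1 was at 77.8, 93.2 and 98.0 normalised CPM in DKK1-SE+/+ libraries and at 135, 108 and 118 in DKK1-SE-/- libraries. MYBL2 was at 104, 111 and 112 and at 174, 134 and 133. Both were higher in every DKK1-SE-/- library and highest in replicate 1, the library in which KIF11, CENPE and TOP2A were lowest. FOXM1 rose with a log2 fold change of 0.42 (SE 0.125, adjusted p = 0.0199) and MYBL2 with 0.43 (SE 0.122, adjusted p = 0.0169). FOXM1 lost its call without DKK1-SE+/+ replicate 1 (adjusted p = 0.153), DKK1-SE+/+ replicate 2 (0.0626) or DKK1-SE-/- replicate 1 (0.0633), and MYBL2 without DKK1-SE+/+ replicates 1, 2 or 3 (0.107, 0.0648 and 0.0502). With the GC-content offset the log2 fold changes were 0.21 (adjusted p = 0.127) and 0.14 (0.207).

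**Figure D3:**
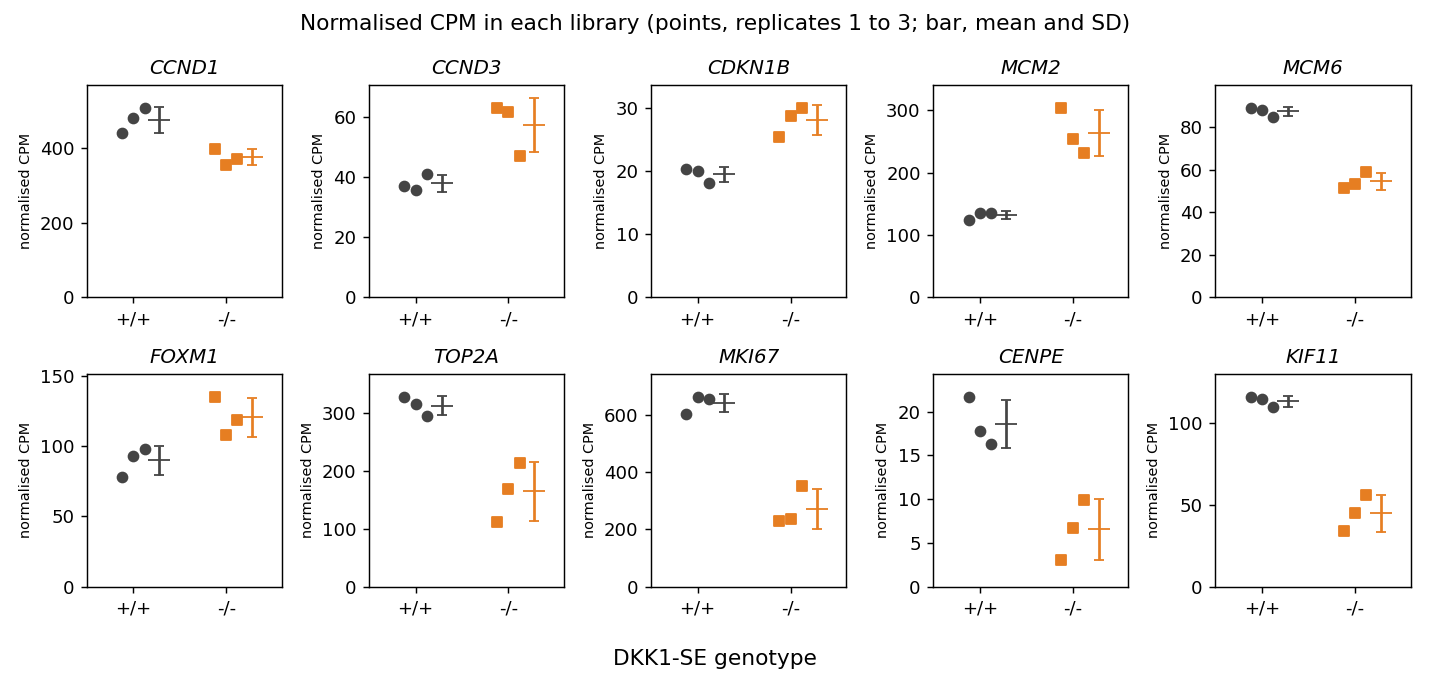
Normalised CPM (vertical axis) of 10 members in each library, with points for replicates 1 to 3 of DKK1-SE+/+ (circles) and DKK1-SE-/- (squares) and bars for the mean and SD (n = 3). MKI67 runs from 604 to 662 in DKK1-SE+/+ and from 227 to 352 in DKK1-SE-/- libraries, and MCM2 from 124 to 136 and from 232 to 304.

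The spindle checkpoint delays anaphase until every chromosome is attached. Its kinase BUB1 was at 125, 124 and 117 normalised CPM in DKK1-SE+/+ libraries and at 72.8, 88.9 and 99.1 in DKK1-SE-/- libraries. ZWINT, a kinetochore protein that the checkpoint needs, was at 84.5, 84.6 and 79.6 and at 99.7, 107 and 104. The groups of both genes were separate, BUB1 low and ZWINT high in every DKK1-SE-/- library. BUB1 fell with a log2 fold change of -0.49 (SE 0.123, adjusted p = 0.00941), its partner BUB1B with -0.40 (SE 0.122, adjusted p = 0.0244), and ZWINT rose by 0.32 (SE 0.0969, adjusted p = 0.0225). ZWINT lost its call without DKK1-SE+/+ replicates 1, 2 or 3 (adjusted p = 0.111, 0.0925 and 0.12) or DKK1-SE-/- replicate 2 (0.0813). BUB1B lost its call without the same libraries (0.0538, 0.0781, 0.0697 and 0.0697). The call on ZWINT was also lost with library size alone (log2 fold change 0.25), without a count filter (0.30) and with the GC-content offset and a replicate block (0.24). In the limma fits on TPM it was lost as well, at 0.16. TTK (-0.26) and MAD2L1 (-0.23) were not called, and TTK was called lower without DKK1-SE-/- replicate 3 (adjusted p = 0.0248).

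The CDC25 phosphatases remove inhibitory phosphates from CDKs. CDC25A was at 51.8, 52.6 and 50.2 normalised CPM in DKK1-SE+/+ and at 39.3, 34.5 and 33.03 in DKK1-SE-/- libraries. CDC25C was at 14.1, 15.1 and 11.9 and at 18.1, 20.9 and 19.1. The 2 phosphatases separated the groups in opposite directions. CDC25A fell with a log2 fold change of -0.53 (SE 0.112, adjusted p = 0.00364) and CDC25C rose by 0.50 (SE 0.139, adjusted p = 0.015). CDC25C lost its call without DKK1-SE+/+ replicate 1 (adjusted p = 0.0556), DKK1-SE+/+ replicate 3 (0.0823) or DKK1-SE-/- replicate 2 (0.0611). CDC25B (0.22) and the anaphase activator CDC20 (0.25) were not called, and CDC20 was called higher without DKK1-SE-/- replicate 3 (adjusted p = 0.0205).

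The engine of mitosis, cyclin B with CDK1, was not called. CCNB1 was at 215, 209.7 and 194 normalised CPM in DKK1-SE+/+ libraries and at 169.7, 185 and 190.3 in DKK1-SE-/- libraries. CDK1 was at 68.9, 68.2 and 64.2 and at 48.4, 65.4 and 70.3. For CCNB1 the highest DKK1-SE-/- library lay just under the lowest DKK1-SE+/+ library, and for CDK1 the groups overlapped, with replicate 1 low and replicate 3 the highest of all 6. Their log2 fold changes were -0.18 (SE 0.0998, adjusted p = 0.167) and -0.13 (SE 0.138, adjusted p = 0.491), and both were positive with the GC-content offset (0.03 and 0.31). CCNB2 (-0.15) and CCNA2 (-0.19), the cyclins B2 and A2, were not called either, while CCNB1 (adjusted p = 0.0464) and CCNA2 (0.0144) were called lower without DKK1-SE-/- replicate 3.

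AURKA, the Aurora kinase of the spindle poles, was at 92.8, 99.1 and 87.7 normalised CPM in DKK1-SE+/+ libraries and at 101, 105 and 107 in DKK1-SE-/- libraries. BIRC5, the survivin subunit of the chromosomal passenger complex, was at 125, 116 and 119 and at 133, 127 and 105. AURKA was slightly higher in every DKK1-SE-/- library, and BIRC5 overlapped. Neither passed the test, with log2 fold changes of 0.17 (SE 0.0991, adjusted p = 0.205) and 0.01 (SE 0.113, adjusted p = 0.931), and both were negative with limma on log2(TPM + 1), a fit that differs in unit, filter and model (-0.03 for AURKA and -0.09 for BIRC5). PLK1 (0.14), AURKB (0.24), TPX2 (0.05) and CENPA (-0.17) were not called, and AURKB was called higher without DKK1-SE-/- replicate 3 (adjusted p = 0.0301). By TPM, CCNB1 (201 to 225), CDC20 (197 to 210.07) and TPX2 (185 to 198) were the most abundant G2/M genes in DKK1-SE+/+ libraries, and none of them was called.

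Over the 26 G2/M genes, 4 rose, 8 fell and 14 were not called, and their median log2 fold change was -0.16. The share called was 46.2%, against 39.3% of all tested genes. With the GC-content offset the median was -0.03, and in the limma fits on TPM 0 G2/M genes were called higher. The groups did not overlap for 5 members that were higher (26.2% of all tested genes) and 11 that were lower (25.7% of all tested genes). The median log2 difference of these genes from the DKK1-SE+/+ mean was -0.22, -0.10 and -0.11 in DKK1-SE-/- replicates 1, 2 and 3, against 0.01, 0.05 and 0.01 for all tested genes. The number called higher depended on single libraries, with 0 without DKK1-SE+/+ replicate 1, 1 without DKK1-SE+/+ replicate 2 or 3 and 2 without DKK1-SE-/- replicate 2. The number called lower ranged from 6 to 11.

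Promoters of the G2/M genes are shown because members with the same element rose, fell or stayed uncalled. The CHR was searched as TTTGAA or TTCGAA on both strands of the 300-base windows. It was found for 15 of 21 G2/M genes (71.4%), 1 of 13 G1 genes and 2 of 14 S phase genes, against 19.5% of all genes of the table. Among the G2/M genes with a window it was present in 6 of the 8 that fell, 2 of 3 that rose and 7 of 10 not called. FOXM1, which rose, had no window. The CCAAT box (CCAAT) was found for 18 of 21 G2/M, 11 of 14 S phase and 6 of 13 G1 genes, against 39.7% of all genes of the table. Of the G2/M genes, it was found for 6 of 8 that fell, 2 of 3 that rose and 10 of 10 not called. Capitals mark the CHR letters on either strand in the 180-base windows below, from 150 before to 30 after the start, RefSeq, GRCh38.p14. KIF11 (chr10:92592980-92593159, plus strand), MKI67 (chr10:128126394-128126573, minus strand) and KIF23 (chr15:69414199-69414378, plus strand) fell.
KIF11: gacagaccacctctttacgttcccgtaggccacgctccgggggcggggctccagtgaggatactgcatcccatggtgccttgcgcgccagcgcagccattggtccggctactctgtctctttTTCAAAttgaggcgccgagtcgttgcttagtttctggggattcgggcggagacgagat
MKI67: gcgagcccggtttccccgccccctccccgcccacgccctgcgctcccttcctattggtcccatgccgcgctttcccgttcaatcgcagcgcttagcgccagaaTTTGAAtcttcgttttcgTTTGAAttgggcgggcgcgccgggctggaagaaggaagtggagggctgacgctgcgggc
KIF23: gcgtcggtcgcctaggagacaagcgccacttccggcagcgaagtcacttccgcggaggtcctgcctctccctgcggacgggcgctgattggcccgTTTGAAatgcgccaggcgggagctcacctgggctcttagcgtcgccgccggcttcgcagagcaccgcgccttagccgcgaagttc
ZWINT (chr10:56361230-56361409, minus strand, the first of 2 windows) rose, and PLK1 (chr16:23678739-23678918), CCNB2 (chr15:59104996-59105175) and CDC20 (chr1:43358831-43359010), all on the plus strand, were not called.
ZWINT: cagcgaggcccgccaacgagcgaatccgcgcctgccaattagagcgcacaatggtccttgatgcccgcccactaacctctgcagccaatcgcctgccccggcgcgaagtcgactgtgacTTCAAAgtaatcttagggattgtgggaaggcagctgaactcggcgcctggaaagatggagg
PLK1: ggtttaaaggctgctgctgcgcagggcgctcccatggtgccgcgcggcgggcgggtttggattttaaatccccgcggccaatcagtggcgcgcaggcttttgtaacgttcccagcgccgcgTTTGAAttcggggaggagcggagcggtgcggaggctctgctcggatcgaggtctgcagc
CCNB2: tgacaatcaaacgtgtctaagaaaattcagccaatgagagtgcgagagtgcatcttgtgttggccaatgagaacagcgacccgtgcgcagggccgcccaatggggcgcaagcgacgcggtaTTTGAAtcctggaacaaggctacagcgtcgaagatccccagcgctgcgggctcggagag
CDC20: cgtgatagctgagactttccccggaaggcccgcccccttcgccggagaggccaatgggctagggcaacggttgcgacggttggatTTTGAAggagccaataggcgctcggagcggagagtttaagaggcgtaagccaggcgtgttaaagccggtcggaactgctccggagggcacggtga
In KIF11 and ZWINT the letters lie on the other strand, TTCAAA. These are short matches anywhere in a window, and whether they relate to the calls was not tested. No match says only that the letters are not in the window.

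The members that fell and those that rose differed in base composition and length. The 15 that fell had a median GC content of 43.1% and a median length of 4564 bases in their longest transcript, and the 9 that rose had 55.7% and 2704 bases. Across the 60 members, the log2 fold change followed GC content with Spearman's rho of 0.612 and length with -0.43, and across all tested genes the values were 0.404 and -0.149, where genes of the same libraries are not independent. With all tested genes split by GC content into 5 bins of equal size, the median log2 fold change was -0.37, -0.14, 0.07, 0.22 and 0.31 from low to high. The members in these bins numbered 9, 15, 13, 16 and 7 and had medians of -0.51, -0.34, -0.00, 0.10 and 0.17. In the bin of lowest GC content, the median difference from the DKK1-SE+/+ mean was -0.64, -0.37 and -0.17 in DKK1-SE-/- replicates 1, 2 and 3, the same order of libraries as for KIF11, CENPE and TOP2A.

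With an offset for GC content in each library, 8 members were called higher (20.2% of all tested genes) and 19 lower (20.9% of all tested genes), and rho with GC content over the members was 0.08. All 8 G2/M genes called lower without the offset were called lower with it, among them KIF11 (-1.03), MKI67 (-1.29), CENPE (-1.03) and TOP2A (-0.60). The rises of MCM2 (0.76), CCND3 (0.36), CDKN1B (0.70), CDC25C (0.47) and ZWINT (0.24) were called as well. FOXM1, MYBL2, RB1 and E2F1 (0.09, adjusted p = 0.421) lost their calls. Calls that appeared only with the offset were CDKN2C (-0.53), E2F2 (-0.38), CCNE1 (-0.37), MCM3 (-0.24) and PCNA (-0.24) among the lower genes, and MCM4 (0.21) and CDK1 (0.31) among the higher ones. The phase medians with the offset were -0.13 for G1, -0.12 for S phase and -0.03 for G2/M. The share of TPM from mitochondrial genes, 11.4%, 13.6% and 13.2% in DKK1-SE+/+ libraries, was 17.0%, 14.0% and 15.1% in DKK1-SE-/- libraries, and the 10 most abundant genes held 20.2%, 22.2% and 22.5% against 28.5%, 23.6% and 26.7%. The part that library composition plays in the members' values was not tested.

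**Figure D4:**
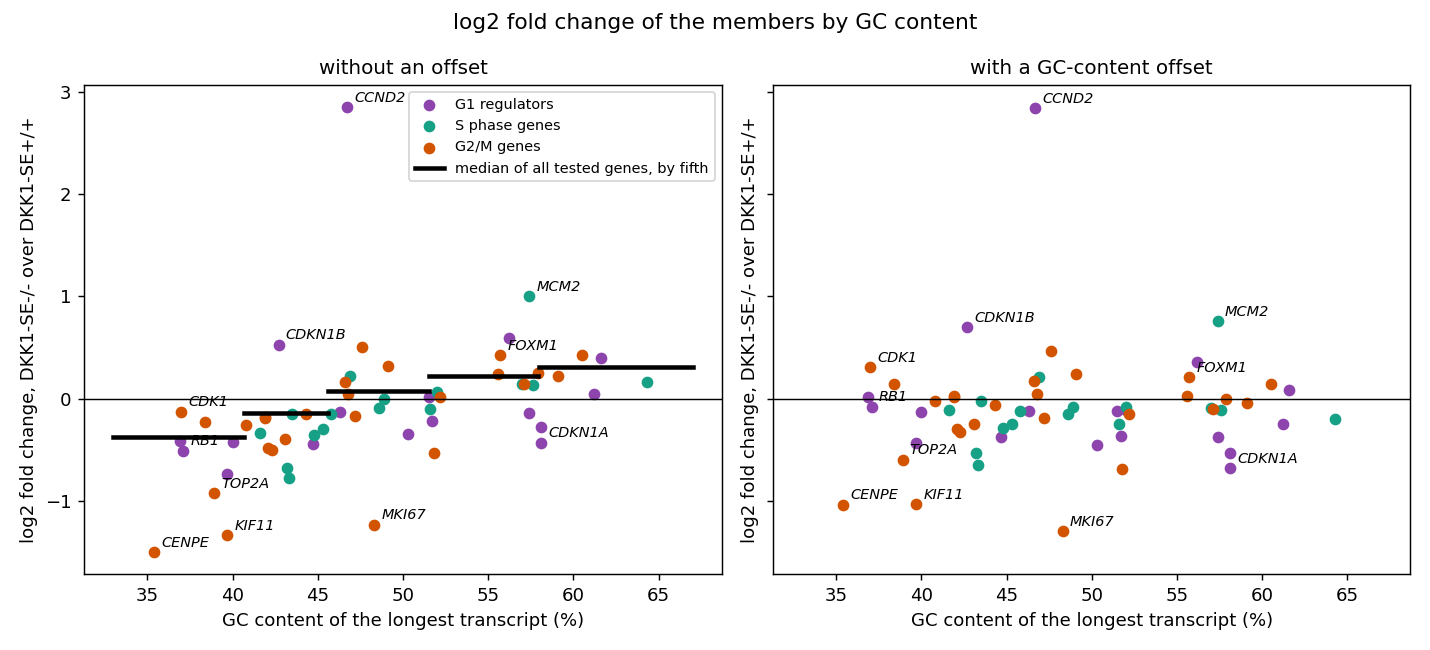
Log2 fold change (vertical axis) of the 60 members by GC content of the longest transcript in percent (horizontal axis), without and with the GC-content offset, with points coloured by phase and lines, in the panel without the offset, for the median of all tested genes in each of 5 bins. Spearman's rho over the members is 0.612 without the offset and 0.08 with it, and KIF11, CENPE and MKI67 stay below -1 in both panels.

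Members were also compared with their chromosomal neighbours, by the median log2 fold change of tested genes within 5 Mb. These medians and those of chromosomes leave out the members, the other cell cycle lists, the markers and the genes named to check the labels. On chromosome 10, where the tested genes had a median of -0.31, KIF11 (neighbours -0.76), MKI67 (-0.40) and MCM10 (-0.40) fell, while ZWINT (0.09) and CDK1 (0.25) lie nearer to DKK1 among genes that were not lower. BUB1 (-0.52) and MCM6 (-0.41) lie on chromosome 2, whose tested genes had a median of -0.40. MCM2 lies among genes with a median of 0.74, and on chromosome 20, with a median of 0.39, MYBL2 (0.48) and E2F1 (0.49) rose while RBL1 (0.50), TPX2 (0.49), AURKA (0.43), PCNA (0.12) and CDC25B (0.12) were not called. Of the 10 members whose neighbours had a median under -0.2, 0 rose and 7 fell, where 6.8% of all tested genes with such neighbours were called higher and 43.6% lower. Between -0.2 and 0.2, 6 of 31 members rose and 4 fell (17.2% and 15.5% of all tested genes), and above 0.2, 3 of 19 rose and 4 fell (36.8% and 4.32% of all tested genes). The 4 that fell above 0.2 were CCND1, CDKN1A, CDC6 and TOP2A, so TOP2A (neighbours 0.29) moved against its neighbours, and CENPE fell further than its own (-0.18). Over the 60 members, Spearman's rho with the neighbour median was 0.487, and 0.324 with the GC-content offset. DNA copy number was not measured, and its part in these values was not tested.

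**Figure D5:**
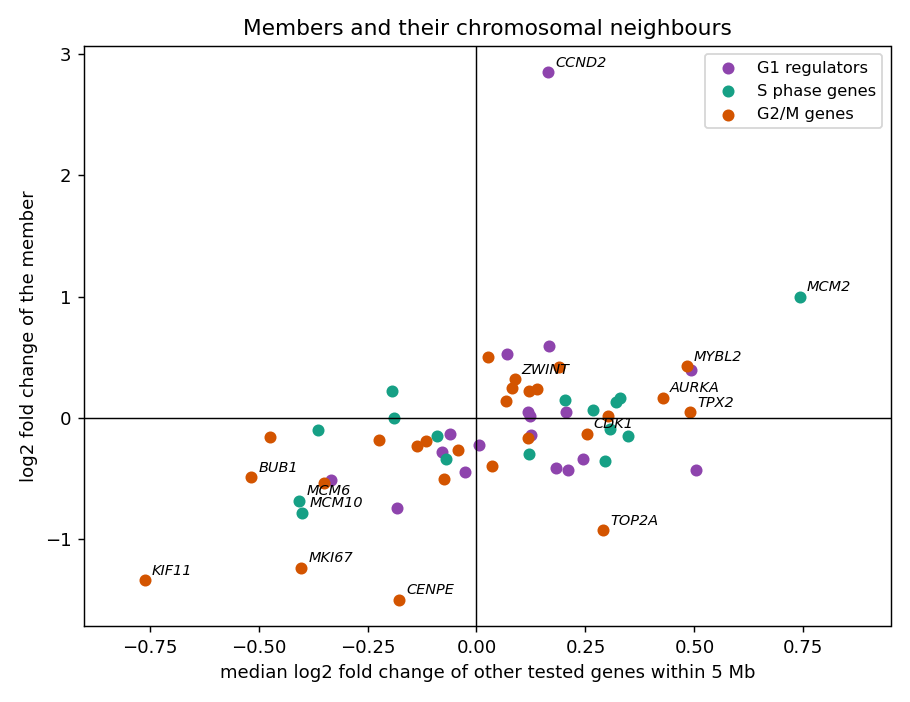
Log2 fold change of each member (vertical axis) against the median log2 fold change of its neighbours (horizontal axis), coloured by phase. Neighbours are tested genes within 5 Mb, without the members, other lists, markers and genes named to check the labels. KIF11 lies at -1.33 with neighbours at -0.76, MCM2 at 1.00 with neighbours at 0.74, and TOP2A at -0.93 with neighbours at 0.29.

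Some members overlap other expressed genes, and the sources used here do not say whether counting used the strand. The overlaps with genes of the opposite strand include CCND1 with LTO1, CDKN1B with GPR19, RB1 with LPAR6 and RCBTB2, CDC25C with FAM53C, FOXM1 with ITFG2 and RHNO1, and KIF23 with KIF23-AS1. CHEK1 with STT3A and CENPA with SLC35F6 share a strand, as CCND2 does with its overlapping gene. For these members, reads of the overlapping gene may not have been separated.

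The 6 other lists of cell cycle genes put the members in context. Of 59 other mitosis genes, 6 rose and 31 fell, a share called of 62.7% against 39.3% of all tested genes, with a median log2 fold change of -0.40 (-0.23 with the GC-content offset). Their log2 fold change followed GC content with rho of 0.853, and of 0.623 with the offset, so the offset did not remove the trend in this list. Their median difference from the DKK1-SE+/+ mean was -0.49 in DKK1-SE-/- replicate 1, -0.36 in replicate 2 and -0.28 in replicate 3. The number called higher was 3 without DKK1-SE+/+ replicate 1. The 4 with the smallest p were PBK (-1.73, adjusted p = 6.75e-06), CDCA2 (-1.29, 6.56e-05), KIF20B (-2.11, 7.6e-05) and KIF14 (-1.30, 0.000213). The members of the same phase, with a median of -0.16, thus stood nearer to all tested genes than the longer list did, and the difference between the lists was not tested.

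Of 45 other replication genes, 2 rose and 15 fell, a share called of 37.8% next to the 39.3% of all tested genes, with a median of -0.23 (-0.12 with the offset), led by ATAD2 (-1.48, adjusted p = 8.74e-05), GINS4 (-0.84, 0.000373), ORC2 (-0.86, 0.00137) and POLA2 (0.67, 0.00145). The number that fell was 8 without DKK1-SE+/+ replicate 2, 9 without DKK1-SE-/- replicate 2 and 23 without DKK1-SE-/- replicate 3. The number that rose was 1 without each of the other 5 libraries and 7 without DKK1-SE-/- replicate 3. Of 16 other G1 regulators tested of 17 listed, 2 rose and 2 fell, a share called of 25% against 39.3% of all tested genes. The median of this list was 0.08, which is the same with CDKN2A at its lower bound. The called genes were CDKN2A, which with 0 counts in DKK1-SE+/+ libraries was tested only through the DKK1-SE-/- libraries, the repressor E2F7 (0.68, adjusted p = 0.00118), SKP2 (-0.49, 0.0173) and CCNH (-0.38, 0.0483). The 2 falls were lost together without DKK1-SE+/+ replicate 2 (adjusted p = 0.0661 for SKP2 and 0.0945 for CCNH), DKK1-SE+/+ replicate 3 (0.0655 and 0.126) or DKK1-SE-/- replicate 2 (0.0626 and 0.0898). CCNH was also lost without DKK1-SE+/+ replicate 1 (0.108) or DKK1-SE-/- replicate 1 (0.0984), and without DKK1-SE-/- replicate 3 the list had 3 rises and 3 falls.

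Of 5 DREAM and MuvB subunits, LIN37 rose (0.77, adjusted p = 0.0151) and LIN9 fell (-0.70, adjusted p = 0.00479). The share called was 40%, next to the 39.3% of all tested genes, and the median was -0.13 (0.18 with the offset). The call on LIN37 was lost without DKK1-SE+/+ replicate 2 (adjusted p = 0.0635), DKK1-SE+/+ replicate 3 (0.0613) or DKK1-SE-/- replicate 2 (0.0625), and with the GC-content offset (0.0596). Of 15 subunits of the anaphase-promoting complex, which ends mitosis, 1 rose (FZR1, 0.57, adjusted p = 0.00541) and 3 fell. The share called was 26.7%, against 39.3% of all tested genes. The median was 0.04, and ANAPC1 had the smallest p (-0.57, adjusted p = 0.00238). Of the 3 falls, 1 was called without DKK1-SE+/+ replicate 2 or without DKK1-SE-/- replicate 2, and 2 subunits were called higher without DKK1-SE-/- replicate 3. Of 20 p53 target genes, 6 rose and 7 fell, a share called of 65% against 39.3% of all tested genes, with a median of 0.07, and those with the smallest p all rose, SESN2 (1.72, adjusted p = 5.62e-06), PLK2 (1.31, 1.03e-05), BAX (0.68, 0.00347) and BTG2 (1.35, 0.00454). The p53 target among the members, CDKN1A, was lower in every DKK1-SE-/- library. The number of p53 targets that fell was 4, 1 and 3 without DKK1-SE+/+ replicates 1, 2 and 3, and 4 without DKK1-SE-/- replicate 2. In either direction, 5 targets were called with limma on log2(TPM + 1), 5 on log2(TPM + 0.1) and 4 on log2(TPM + 1) without filter. Of the 13675 genes tested on log2(TPM + 1), 1217 were called higher and 2373 lower. With the GC-content offset and a replicate block, 8 targets were called.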

How the data were processed

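The authors deposited expected counts, estimated per gene and library without normalisation. The authors deposited TPM, normalised within each library for transcript length and depth. Majorbio sequenced and analysed the stranded mRNA libraries. The aligner, the counter and the annotation are not given in the sources used here. Fractions (tolerance 1e-06) made up 32.32% of counts above 0, and counts were rounded before fitting. The fold change, log2 fold change, p-value, adjusted p, significance and regulation flags and group mean TPM that the authors deposited were not used.

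Genes were filtered with filterByExpr (minimum count 10), scaled by TMM and tested with the quasi-likelihood F test of edgeR (two-sided), with Benjamini-Hochberg adjustment. SE is the absolute log2 fold change over the square root of F. GENCODE 44 on hg38 placed 62625 of the 62703 genes (99.88%) and gave GC content, transcript length and neighbours within 5 Mb. The GC-content offset used 40 bins of genes in each library. A floor of 3 counts per library covers counting error only. The members' phases, roles, other lists, markers and promoter motifs were chosen with earlier results of these data known. Values in each library were given for 17 members whatever their result and for up to 8 members per phase with adjusted p under 0.05, by smallest p, and other lists were described by up to 4 such genes. The code was tested on simulated data. Software was R 4.3.3, edgeR 4.0.16, DESeq2 1.42.0, limma 3.58.1, Python 3.11.15, pandas 2.3.3, scipy 1.17.1 and matplotlib 3.10.9.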

Additional observations from a re-analysis of the deposited data

How the results depend on the processing

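The results were taken again under 19 other settings, of which 2 are other call rules on the same fit. Of 568 results for the 30 named members, 431 kept their call or lack of one, 98 lost a call, 16 gained one and 23 turned in sign, whatever the size of the fold change. With library size alone, the median log2 fold changes were -0.25 (G1), -0.17 (S phase) and -0.23 (G2/M), and BIRC5 was at -0.061. BIRC5 was at -0.0045 with DESeq2 and -0.0013 without a count filter. limma on TPM shifted the median of all tested genes, by -0.14 on log2(TPM + 1), -0.15 on log2(TPM + 0.1) and -0.14 without filter. On log2(TPM + 1), 1 G1 regulator and 0 G2/M genes were called higher, the medians were -0.25, -0.18 and -0.33, AURKA was at -0.0298 and BIRC5 at -0.0889. On log2(TPM + 0.1) the counts were 1 and 0, the medians -0.31, -0.18 and -0.33, AURKA -0.0302 and BIRC5 -0.09. On log2(TPM + 1) without filter, 0 G1 regulators and 0 G2/M genes were called higher and 2 G1, 1 S phase and 4 G2/M genes lower, with medians of -0.25, -0.18 and -0.33, AURKA at -0.0298 and BIRC5 at -0.0889. CCND3, E2F1, RB1, CDC6, CDC25C, ZWINT, FOXM1 and MYBL2 lost their calls in all 3 limma fits, and CDKN1B, CCND2, CDK6, MCM10, BUB1, TOP2A and CENPE in the fit without filter. The share of called genes that were higher was 50.5% in the edgeR fit of the report and 33.9%, 33.6% and 39.8% with these 3 fits. With the GC-content offset, 2 S phase genes were called higher and 5 lower, the G2/M median was -0.0293, and reversed values were BIRC5 -0.15, CCNB1 0.0281, CCNE2 0.0153 and CDK1 0.31. With the GC-content and length offset, which was chosen after seeing the data, these were 2 and 5, the S phase median was -0.13 and the G2/M median -0.05 (-0.0469), BIRC5 was at -0.17, CCNB1 at 0.0006 and CDK1 at 0.28. With the GC-content offset and a replicate block, 2 G2/M genes were called higher, the G2/M median was -0.05 (-0.0457), BIRC5 -0.15, CCNB1 0.0275, CCNE2 0.012 and CDK1 0.30. With a block for replicate number alone, 7 members were called higher and 13 lower, and CCND1 (adjusted p = 0.0916), E2F1 (0.0903), CDC6 (0.0828) and ZWINT (0.104) lost their calls; the replicate numbers did not pair the libraries by correlation, and the cause was not tested. When calls needed an unadjusted p under 0.05 and log2 fold changes of 1.2 or more in size, 1 G1, 0 S phase and 0 G2/M genes were higher and 0, 0 and 3 lower. With an unadjusted p under 0.05 and a linear fold change of at least 1.2 in place of the adjusted p, 7 G1 and 5 S phase genes were lower. With 1 library left out, the calls ranged from 3 to 4 (G1 higher), 1 to 8 (G1 lower), 1 to 1 (S phase higher), 2 to 5 (S phase lower), 0 to 6 (G2/M higher) and 6 to 11 (G2/M lower), the G2/M median ranged from -0.2186 (without DKK1-SE-/- replicate 3) to -0.0932 (without DKK1-SE-/- replicate 1), and BIRC5 ranged from -0.0719 to 0.0884, with -0.0142 without DKK1-SE+/+ replicate 2, -0.0719 without DKK1-SE-/- replicate 1 and -0.0187 without DKK1-SE-/- replicate 2.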
